A study of Mus musculus with 24 samples.

Results

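The genes described here are 55 genes of G2 and mitosis, chosen by name for their roles in the cell cycle, with earlier results of these data known. Their counts, given below beside shares of all genes, thus describe the list and are not an independent test of it. They comprise cyclins, mitotic kinases, spindle checkpoint and kinetochore proteins, the regulators of anaphase, condensins and cytokinesis factors, with the mitotic kinesins left aside. Cenpe stayed in the list as a kinetochore gene, although its product is itself a kinesin motor. Of the 55 genes, 54 had a probe set carrying that 1 gene symbol, out of 19938 such genes on the array, and Ccnb1 was not analysed here. The RNA came from NIH3T3 cells, an immortalised line of mouse fibroblasts. All groups had first grown for 96 h with 1 mM difluoromethylornithine (DFMO) in the medium, which blocks ornithine decarboxylase and so depletes polyamines. The 0 min group was taken then, without stimulation. The other 7 groups received 10 µM spermidine in the presence of 1 mM aminoguanidine, an inhibitor of polyamine oxidation, and were taken after 30, 60, 120, 240, 360, 480 or 600 min. Each of the 8 groups had 3 biological replicates, giving 24 Affymetrix MoGene 1.0 ST arrays hybridised with 200 ng of RNA each. No array used here is labelled as DFMO without spermidine at a later time, so that time in culture and spermidine cannot be told apart, and the labels do not state whether the 0 min cells received aminoguanidine.

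Entry into mitosis is driven by Cdk1 bound to cyclins A and B, which Cdc25 phosphatases switch on and Polo and Aurora kinases assist. The spindle checkpoint then holds the anaphase-promoting complex in check until all kinetochores are attached, after which securin and cyclin B are degraded and separase opens the cohesin rings. Most of these genes are transcribed late in the cell cycle, when complexes built on the MuvB core with B-Myb (Mybl2) and FoxM1 bind CHR elements (cell cycle genes homology regions) in their promoters, often beside CCAAT boxes bound by NF-Y. Genes of G1/S and DNA replication are instead known as targets of E2F factors.

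Array medians over all probe sets lay between 4.4 and 4.45 on the log2 scale of the deposited values, on which all levels below are given. With 3 arrays per group, differences of a time from 0 min had a median standard error of 0.10 over the G2 and mitosis genes and 0.06 over all genes. Nothing in the labels says how far the cultures were separate, and the p-values measure the spread between these arrays. The deposited values had also been adjusted so that the 3 replicate numbers have equal means for every gene. Of the 8 fibroblast markers, 7 had medians from 6.07 (Thy1) to 12.71 (Vim), while Fap stayed at 3.69 to 3.87. The markers of other cell types included low ones in macrophages (Ptprc, 3.69 to 3.83), epithelium (Epcam, 3.74 to 3.90) and muscle (Myod1, 3.78 to 4.01). Others lay near the middle of all genes, namely Cd68 (4.28 to 4.94), Cdh1 (4.28 to 4.94) and Des (4.08 to 4.70), and Lyz2, a lysozyme of macrophages, reached 7.01 to 7.83. Of the 24 markers measured, 2 rose and 2 fell at 600 min, where 11.2% of all genes were called higher and 15.7% lower. The mean over the 5 macrophage markers was 4.73 to 4.80 at 0 min and 4.63 to 4.81 at 600 min. Of the 24 arrays, 13 were closest to the mean of their own labelled time over 19884 other genes, and 2 of the rest are set out here because their correlation with their own time was near 0. The mean of its own time left out the array itself and so held 2 arrays, against 3 for other times, which can lower the own-time correlation. Replicate 3 of 120 min was closest to the 360 min mean (r = 0.309, against -0.025 with its own time) and replicate 3 of 240 min to the 60 min mean (r = 0.556, against 0.059). The median member lay 0.19 above and 0.14 below its 0 min mean on them, against -0.03 and -0.02 on the other 120 min arrays and 0.02 and 0.00 on the other 240 min arrays. The labels of these 2 arrays were kept, and whether they are right was not tested. Because RNA was taken from whole dishes, more cells in G2 and mitosis cannot be told apart from more of these RNAs per cell.

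Promoters of genes active in G2 and mitosis are known for CHR and CCAAT words, and 6 windows that hold a CHR word are shown here to let it be seen in place. Of the 10 genes with a window that were named for their role or for the largest change of their role, these 6 hold a CHR word, and Plk1, Nek2, Bub1 and Mybl2 do not. RefSeq windows of 250 bases before the annotated start (GRCm38.p6) matched 43 of the 54 genes, with 46 windows. Both strands were searched. A CHR word was TTTGAA or TTCGAA, and an E2F word was TTCCCGC or TTCGCGC or TTGGCGC or TTGCCGC. The NF-Y box was searched as CCAAT and the forkhead word as TAAACA. The NF-Y box reads ATTGG on the other strand, whose last 4 letters can overlap the E2F word TTGGCGC. Capitals mark CHR, CCAAT and E2F words on either strand in Cdk1 (chr10:69352913-69353162, minus strand), Cdc20 (chr4:118437344-118437593, minus strand), Top2a (chr11:99024190-99024439, minus strand), Cdca5 (chr19:6084847-6085096, plus strand), Cenpn (chr8:116921490-116921739, plus strand) and Ncapg (chr5:45669675-45669924, plus strand), each written 5′ to 3′ along the gene.
Cdk1: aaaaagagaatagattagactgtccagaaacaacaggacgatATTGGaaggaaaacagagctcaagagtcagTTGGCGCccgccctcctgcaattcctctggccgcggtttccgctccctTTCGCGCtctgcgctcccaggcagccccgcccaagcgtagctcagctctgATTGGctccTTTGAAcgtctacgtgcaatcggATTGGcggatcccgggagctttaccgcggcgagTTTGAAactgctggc
Cdc20: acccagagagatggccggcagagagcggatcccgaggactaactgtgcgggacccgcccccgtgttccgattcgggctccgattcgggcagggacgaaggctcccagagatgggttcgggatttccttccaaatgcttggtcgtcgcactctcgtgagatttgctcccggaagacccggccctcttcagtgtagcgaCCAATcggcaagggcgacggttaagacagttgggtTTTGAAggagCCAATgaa
Top2a: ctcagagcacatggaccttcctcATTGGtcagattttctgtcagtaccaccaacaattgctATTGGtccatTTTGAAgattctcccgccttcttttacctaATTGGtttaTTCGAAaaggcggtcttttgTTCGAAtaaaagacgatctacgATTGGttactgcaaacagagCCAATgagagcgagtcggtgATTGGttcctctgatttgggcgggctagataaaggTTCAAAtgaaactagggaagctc
Cdca5: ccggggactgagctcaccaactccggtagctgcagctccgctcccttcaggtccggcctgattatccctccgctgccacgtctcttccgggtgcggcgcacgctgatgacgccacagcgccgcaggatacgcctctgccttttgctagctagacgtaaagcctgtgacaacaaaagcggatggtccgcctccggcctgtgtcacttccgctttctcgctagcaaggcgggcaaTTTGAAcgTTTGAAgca
Cenpn: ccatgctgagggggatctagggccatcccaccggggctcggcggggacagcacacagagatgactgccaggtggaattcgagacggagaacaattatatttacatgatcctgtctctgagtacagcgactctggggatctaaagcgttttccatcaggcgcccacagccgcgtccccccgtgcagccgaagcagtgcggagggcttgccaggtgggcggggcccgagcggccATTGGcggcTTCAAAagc
Ncapg: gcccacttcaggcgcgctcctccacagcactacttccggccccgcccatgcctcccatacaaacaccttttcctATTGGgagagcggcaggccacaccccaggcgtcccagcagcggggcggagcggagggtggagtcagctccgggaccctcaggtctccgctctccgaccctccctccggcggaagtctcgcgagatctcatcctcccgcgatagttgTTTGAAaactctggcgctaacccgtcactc
The Cdk1 window held 2 CHR, 2 E2F and 3 CCAAT words, with the nearer CHR word beginning 15 bases before the start. The first base of the nearest CHR word lay 18 bases before the start in Cdc20, 23 in Top2a, 9 in Cdca5, 9 in Cenpn and 30 in Ncapg. Top2a held 4 CHR and 6 CCAAT words, and Cdca5 held 2 CHR words and 0 CCAAT words.

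A CHR word stood in 20 of the 46 windows (43.5%), against 17.1% of all 32851 RefSeq windows and 17.1% of 41 windows of genes of G1/S and DNA replication. A CCAAT word stood in 35 (76.1%), against 33.8% of all windows and 58.5% of those of G1/S genes. Both words occurred together in 19 windows (41.3%), against 6.02% of all windows. E2F words stood in 6 windows (13%), against 7.89% of all windows and 46.3% of those of G1/S genes. Among the 19177 windows of genes with a probe set the shares were 14.8% for CHR, 34.5% for CCAAT and 10.6% for E2F. The 11 windows of mitotic kinesins held CHR in 45.5% and CCAAT in 63.6%. The forkhead word was in 4 windows (8.7%), against 12% of all. The windows were not matched on base composition, some genes have several windows, and a match says only that the letters are present. Within the set, the CHR share was 47.6% of 21 windows for genes that rose by 360 min and 41.7% of 24 windows for those not called then. By the calls at 600 min it was 41.7% of 36 and 50% of 10 windows, and by those from 360 to 600 min 38.5% of 13 and 45.5% of 33. The share was thus higher among the risen genes in the first of these splits and lower in the others.

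**Figure D1:**
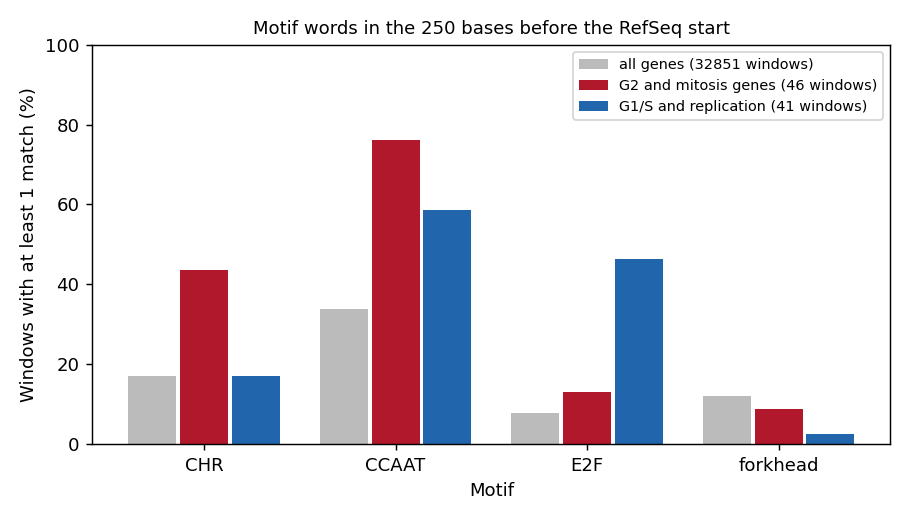
Share of 250-base promoter windows (%, vertical axis) holding at least 1 CHR, CCAAT, E2F or forkhead word, for all genes (grey), the G2 and mitosis genes (red) and genes of G1/S and replication (blue). CHR words stand in 43.5% of G2 and mitosis windows and 17.1% of both other sets, and E2F words in 13% and 46.3% of G2 and mitosis and G1/S windows.

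Against 0 min, none of the 54 genes passed the test during the first 240 min, 25 rose by 360 min, 37 by 480 min and 42 by 600 min. The largest rises at 600 min were in Cdca5, the cohesin-stabilising protein sororin (2.70-fold), Aurkb, the Aurora kinase of the chromosomal passenger complex (2.32-fold), and Nek2, a centrosomal kinase (2.19-fold). Cenpa, the centromeric histone H3 variant, was the member called lower, at 360 and 480 min. Genes were called with limma at a Benjamini-Hochberg adjusted p under 0.05 over all 19938 genes, with no minimum change. At 360 min, 25 of 54 rose and 1 fell, where 8.47% of all genes were called higher and 10.5% lower. At 480 min, 37 rose and 1 fell, against 9.73% and 14.5% of all genes. At 600 min, 42 rose and 0 fell, against 11.2% and 15.7% of all genes, with 46 members (45 of them higher) and 34.8% of all genes at an unadjusted p under 0.05. The median difference from 0 min was 0.27 at 360 min, 0.44 at 480 min and 0.54 at 600 min on the log2 scale, against 0.00, 0.00 and 0.01 over all genes. The genes that rose by 600 min did so by 1.27-fold to 2.70-fold, and 8 of them at least 2-fold, a change called in 0.958% of all genes.

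At 0, 360, 480 and 600 min the member medians on single arrays lay in the order of time, with 360 and 480 min nearly touching. The median member on each array lay 0.09, 0.00 and -0.10 from the 0 min mean on the 0 min arrays, 0.18, 0.22 and 0.39 at 360 min, 0.44, 0.39 and 0.52 at 480 min, then 0.56, 0.53 and 0.53 at 600 min. All late arrays were thus above the 3 arrays at 0 min in this median. Replicate 3 of 120 min, at 0.19, lay above replicate 1 of 360 min, at 0.18. All 3 arrays were above all 3 at 0 min for 29 of 54 members at 360 min, 41 at 480 min and 46 at 600 min, where 15.7%, 16.7% and 17.5% of all genes had this pattern. A comparison that uses no 0 min array, late arrays (360, 480 and 600 min) against early ones (30, 60 and 120 min), called 42 members higher and Cenpa lower, against 16.4% and 19.4% of all genes. Over all 8 times, the F-test of limma called 44 members changed, against 30.9% of all genes.

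**Figure D2:**
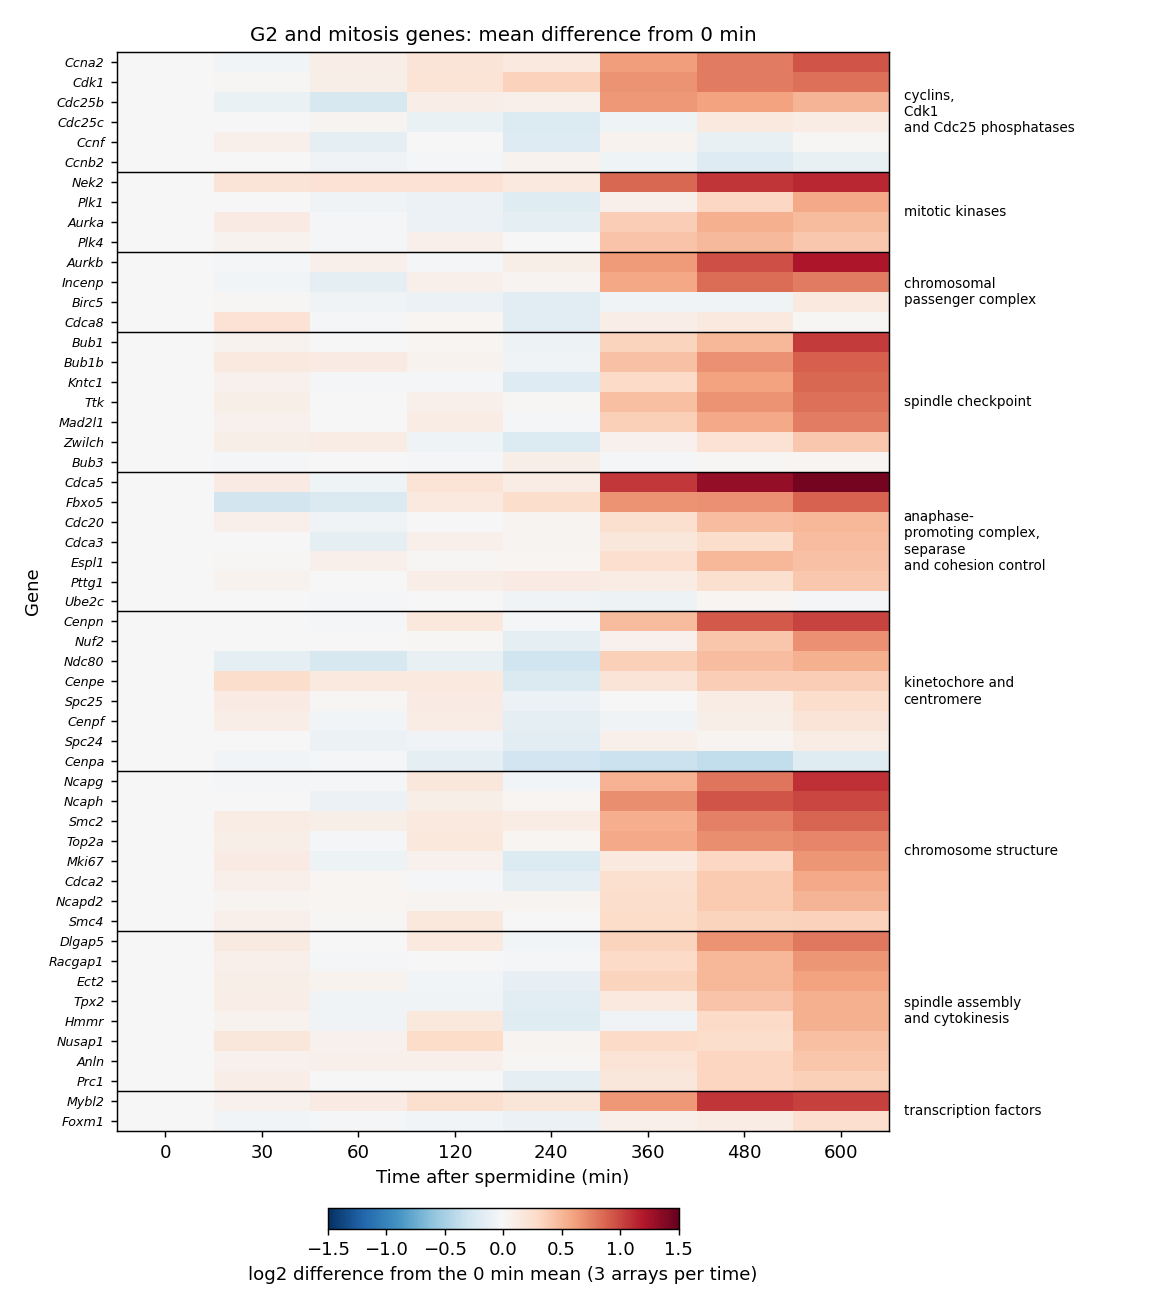
Mean log2 difference from the 0 min mean (colour, 3 arrays per time) for the 54 genes (rows, grouped by role) at each time after spermidine (columns, min, evenly spaced and not to scale). Columns up to 240 min are pale for most genes, and from 360 min most rows turn red, with Cdca5 the darkest at 1.43 for 600 min and Cenpa blue at 360 and 480 min.

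During the first 240 min the median difference of the members from 0 min was 0.06 at 30 min, -0.02 at 60 min, 0.06 at 120 min and -0.04 at 240 min. With limma, 0 members were called higher and 0 lower at each of these times. Of all genes, 0.015% were called higher and 0% lower at 30 min. The shares were 0.01% and 0.015% at 60 min, 0.0451% and 0.426% at 120 min. At 240 min they reached 0.366% and 2.69%. An unadjusted p under 0.05 was reached by 1, 1, 1 and 4 members, against 5.54%, 5.14%, 12.2% and 15.4% of all genes. The smallest p-values at 30 min belonged to Cdca8, the passenger complex protein borealin, at 0.22 (95% interval 0.01 to 0.43, adjusted p = 0.863), and Cenpe, at 0.26 (95% interval -0.02 to 0.55, adjusted p = 0.903). Cdca8 read 6.08, 6.06 and 5.91 at 0 min and 6.16, 6.36 and 6.20 at 30 min, without overlap, and Cenpe read 5.78, 5.49 and 5.52 and 5.71, 6.13 and 5.74, with overlap. The smallest p-values at 60 min belonged to Cdc25b, at -0.24 (95% interval -0.48 to 0.00, adjusted p = 0.973), and Spc24, at -0.09 (95% interval -0.19 to 0.02, adjusted p = 1). Cdc25b read 6.52, 6.41 and 6.47 at 60 min, all below its 0 min arrays (6.68, 6.76 and 6.68), and Spc24 read 4.38, 4.49 and 4.43 against 4.56, 4.45 and 4.55, with overlap. The smallest p-values at 120 min belonged to Mybl2, at 0.24 (95% interval 0.00 to 0.47, adjusted p = 0.408), and the spindle protein Nusap1, at 0.27 (95% interval 0.00 to 0.54, adjusted p = 0.413). Mybl2 read 4.77, 4.51 and 4.97 at 120 min, against 4.53, 4.48 and 4.53 at 0 min, with replicate 3 the highest. Nusap1 read 6.06, 6.05 and 5.76 at 0 min and 6.13, 5.98 and 6.56 at 120 min, with the high value on replicate 3, the array nearest to 360 min over other genes. At 240 min Cenpa differed by -0.29 (95% interval -0.46 to -0.11, adjusted p = 0.0755) and Cdk1 by 0.34 (95% interval 0.13 to 0.56, adjusted p = 0.0774). Cdk1 read 8.23, 8.32 and 8.31 at 240 min, all above its 0 min arrays, and Cenpa read 6.62, 6.50 and 6.76, all below. At 240 min all 3 arrays were above those at 0 min in 3 of 54 members and below in 6, against 7.73% and 11.1% of all genes. At 30 min 2 members were above, against 5.1% of all genes, and at 60 min 1 was below, against 6%. Without replicate 3 of 120 min and of 240 min, Cdk1 was called higher at 240 min (0.33, adjusted p = 0.00707) and Cenpa lower (-0.35, adjusted p = 0.0224), and Cenpa was also called without replicate 3 of 240 min alone.

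Among the cyclins, Cdk1 and the Cdc25 phosphatases, 3 of 6 rose at 360 min and the same number at 600 min. Cdk1, the kinase that drives mitotic entry, read 8.00, 8.05 and 7.79 on the 0 min arrays, 8.58, 8.63 and 8.65 at 360 min, 8.84, 8.69 and 8.65 at 480 min, then 8.78, 8.83 and 8.69 at 600 min. These values, like those that follow, are in the order of replicates 1 to 3, and every late array was above every 0 min array. Cdk1 rose by 0.82 ± 0.10 (log2, SE) from 0 to 600 min, 1.77-fold, with an adjusted p of 4.03e-06. Ccna2, cyclin A2, its partner in S and G2 phase, read 7.90, 7.74 and 7.77 at 0 min, 8.37, 8.41 and 8.50 at 360 min, 8.52, 8.63 and 8.60 at 480 min, then 8.79, 8.71 and 8.73 at 600 min. These groups of arrays did not overlap with 0 min either. Ccna2 rose by 0.94 ± 0.10 (log2, SE) from 0 to 600 min, 1.92-fold, with an adjusted p of 5.22e-07. Cdc25b, a phosphatase that activates Cdk1, read 6.68, 6.76 and 6.68 at 0 min, 7.37, 7.19 and 7.52 at 360 min, then 7.25, 7.23 and 7.18 at 600 min. It was above its 0 min arrays on all of them, with a difference of 0.65 (adjusted p = 0.000391) at 360 min and 0.52 (adjusted p = 0.00169) at 600 min. Ccnb2, cyclin B2, was not called at any time. Its arrays read 5.90, 6.04 and 6.07 at 0 min and 5.98, 5.72 and 5.97 at 600 min and overlapped, with a difference of -0.12 (95% interval -0.31 to 0.08, adjusted p = 0.438). Late against early, Ccnb2 differed by -0.10 (adjusted p = 0.159), and was called lower without replicate 3 of 60 min (-0.14, adjusted p = 0.0189). The phosphatase Cdc25c differed by 0.11 (95% interval -0.03 to 0.26, adjusted p = 0.27) and Ccnf, cyclin F, by 0.02 (95% interval -0.23 to 0.27, adjusted p = 0.941) at 600 min.

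All 4 mitotic kinases were higher at 600 min, and 2 of them at 360 min. Nek2, which parts the centrosomes before mitosis, read 6.56, 6.46 and 6.17 at 0 min, 7.10, 7.30 and 7.39 at 360 min, 7.38, 7.43 and 7.59 at 480 min, then 7.54, 7.51 and 7.54 at 600 min. It was above its 0 min arrays from 360 min on. Nek2 rose by 1.13 ± 0.13 (log2, SE) from 0 to 600 min, 2.19-fold, with an adjusted p of 1.58e-06. Plk1, Polo-like kinase, came later. Its arrays read 7.31, 6.93 and 6.92 at 0 min and 7.03, 7.06 and 7.30 at 360 min, which overlap, then 7.26, 7.36 and 7.48 at 480 min, then 7.56, 7.75 and 7.57 at 600 min. At 480 min 1 array still lay below replicate 1 of 0 min, and at 600 min none did. The difference from 0 min was 0.07 (95% interval -0.13 to 0.27, adjusted p = 0.72) at 360 min, and Plk1 rose by 0.57 ± 0.10 (log2, SE) from 0 to 600 min, 1.49-fold, with an adjusted p of 0.000106. At 480 min its call (adjusted p = 0.021) was lost without replicate 2 or 3 of 0 min or of 480 min (adjusted p 0.0507 to 0.116). Aurka, the Aurora kinase of the spindle poles, differed by 0.36 (95% interval 0.08 to 0.65, adjusted p = 0.0677) at 360 min and 0.48 (adjusted p = 0.011) at 600 min, the latter lost without replicate 3 of 0 min (adjusted p = 0.0607). Plk4, which starts centriole duplication, differed by 0.42 (adjusted p = 0.0097) at 360 min and 0.40 (adjusted p = 0.00925) at 600 min.

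The chromosomal passenger complex, which corrects faulty kinetochore attachments and works in cytokinesis, split into 2 members that rose and 2 that were not called at any late time. Aurkb, its kinase, read 7.21, 6.90 and 6.82 at 0 min, 7.57, 7.51 and 7.78 at 360 min, 7.78, 7.98 and 8.05 at 480 min, then 8.30, 8.30 and 7.98 at 600 min. All late arrays were above the highest 0 min array, replicate 1. Aurkb rose by 1.21 ± 0.11 (log2, SE) from 0 to 600 min, 2.32-fold, with an adjusted p of 6.67e-08. Incenp, the scaffold that activates Aurkb, rose by 0.59 (adjusted p = 0.000144) at 360 min and 0.78 (adjusted p = 1.97e-06) at 600 min. Birc5, the small subunit survivin, differed by 0.14 (95% interval -0.06 to 0.34, adjusted p = 0.329) at 600 min. Cdca8 read 6.08, 6.06 and 5.91 at 0 min and 6.14, 6.00 and 5.96 at 600 min, overlapping, with a difference of 0.02 (95% interval -0.19 to 0.23, adjusted p = 0.931). Whether Aurkb and Incenp differ in their change from Birc5 and Cdca8 was not tested.

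In the spindle checkpoint, 4 of 7 genes rose at 360 min, 5 at 480 min and 6 at 600 min. Bub1, a kinetochore kinase of this checkpoint, read 7.07, 6.86 and 6.83 at 0 min, 7.18, 7.21 and 7.37 at 360 min, 7.42, 7.39 and 7.45 at 480 min, then 7.91, 7.97 and 8.02 at 600 min. All 360 min arrays lay above those at 0 min, and all 600 min arrays above those at 480 min. Bub1 rose by 1.05 ± 0.10 (log2, SE) from 0 to 600 min, 2.06-fold, with an adjusted p of 8.48e-08. At 600 min the other rises were 0.90 (adjusted p = 2.81e-06) in Bub1b, the checkpoint protein BubR1, 0.86 (adjusted p = 1.58e-05) in Kntc1 and 0.40 (adjusted p = 0.0059) in Zwilch, both of the Rod-Zwilch-ZW10 complex. Ttk, the kinase Mps1 at the head of the pathway, rose by 0.83 (adjusted p = 8.16e-06), and Mad2l1, whose product Mad2 binds Cdc20, by 0.77 (adjusted p = 9.52e-07). Bub3, the partner of Bub1, differed by 0.03 (95% interval -0.12 to 0.18, adjusted p = 0.849). The call of Zwilch was lost without replicate 3 of 600 min (adjusted p = 0.0538) and in a fit of the 0 and 600 min arrays alone (adjusted p = 0.0556).

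Of 7 genes of the anaphase-promoting complex, separase and cohesion control, 2 rose at 360 min, 5 at 480 min and 6 at 600 min. Cdca5, sororin, which keeps cohesin on the sister chromatids, read 5.31, 5.22 and 5.16 at 0 min, 6.21, 6.25 and 6.43 at 360 min, 6.66, 6.52 and 6.46 at 480 min, then 6.77, 6.75 and 6.46 at 600 min. It was the member furthest from its 0 min level at 360, 480 and 600 min. Cdca5 rose by 1.43 ± 0.16 (log2, SE) from 0 to 600 min, 2.70-fold, with an adjusted p of 9.74e-07. Fbxo5, the inhibitor Emi1 of the anaphase-promoting complex, rose by 0.67 (adjusted p = 0.00263) at 360 min and 0.88 (adjusted p = 0.000112) at 600 min. Cdc20, the activator of the complex in mitosis, read 6.17, 5.96 and 5.83 at 0 min, 6.05, 6.17 and 6.47 at 360 min, 6.46, 6.42 and 6.47 at 480 min, then 6.31, 6.60 and 6.56 at 600 min. The 360 min arrays overlapped those at 0 min, with a difference of 0.24 (95% interval 0.03 to 0.45, adjusted p = 0.104), and those at 480 and 600 min did not. Cdc20 rose by 0.50 ± 0.10 (log2, SE) from 0 to 600 min, 1.42-fold, with an adjusted p of 0.000502. At 600 min Pttg1, securin, rose by 0.41 (adjusted p = 1.58e-05), Espl1, separase, by 0.44 (adjusted p = 0.00279) and Cdca3, a trigger of mitotic entry, by 0.46 (adjusted p = 0.0015). Ube2c, the ubiquitin-conjugating enzyme of the complex, differed by -0.02 (95% interval -0.19 to 0.14, adjusted p = 0.895).

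The kinetochore and centromere genes had 1 of 8 higher at 360 min, 3 at 480 min and 4 at 600 min. Cenpn, which reads the centromeric nucleosome, read 6.51, 6.52 and 6.42 at 0 min, 6.89, 6.88 and 7.10 at 360 min, 7.39, 7.39 and 7.44 at 480 min, then 7.56, 7.40 and 7.55 at 600 min. It was above its 0 min arrays from 360 min on. Cenpn rose by 1.02 ± 0.09 (log2, SE) from 0 to 600 min, 2.03-fold, with an adjusted p of 6.03e-08. Nuf2, of the Ndc80 complex that grips microtubules, read 7.12, 6.87 and 6.85 at 0 min, 6.95, 7.04 and 7.06 at 360 min, 7.28, 7.31 and 7.51 at 480 min, then 7.53, 7.65 and 7.72 at 600 min. It overlapped with 0 min at 360 min and not thereafter. Nuf2 rose by 0.69 ± 0.08 (log2, SE) from 0 to 600 min, 1.61-fold, with an adjusted p of 1.16e-06. Within the same complex Ndc80 rose by 0.54 (adjusted p = 0.01), while Spc24 differed by 0.11 (95% interval 0.01 to 0.22, adjusted p = 0.111) and Spc25 by 0.27 (95% interval 0.05 to 0.48, adjusted p = 0.0698). Spc24 was called higher late against early, at 0.12 (adjusted p = 0.00167). Spc25 was called at 600 min after quantile normalization (adjusted p = 0.0397), with the filter on low values (adjusted p = 0.0392) and with the arrays compared alone (adjusted p = 0.0422). The call of Ndc80 was lost without replicate 3 of 0 min (adjusted p = 0.0621) or of 600 min (adjusted p = 0.0839). Cenpe rose by 0.37 (adjusted p = 0.0483), a call lost without each of 5 of the 6 arrays compared (adjusted p 0.051 to 0.177) and with replicate number as a block (adjusted p = 0.0705). The F-test called Cenpe (adjusted p = 0.0237), and the late against early comparison did not (adjusted p = 0.236). Cenpf, a large kinetochore protein, differed by 0.19 (95% interval -0.03 to 0.42, adjusted p = 0.214).

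Cenpa ran against most other members. It read 6.90, 6.98 and 6.86 at 0 min, 6.71, 6.45 and 6.63 at 360 min, 6.53, 6.41 and 6.69 at 480 min, then 6.66, 6.76 and 6.76 at 600 min. All arrays from 360 min on were below the lowest 0 min array. This pattern held for 1, 2 and 1 of 54 members at 360, 480 and 600 min, and for 17.3%, 19.7% and 19.9% of all genes. Cenpa fell by 0.32 at 360 min (adjusted p = 0.0105) and fell by 0.37 at 480 min (adjusted p = 0.00253). At 600 min its difference was -0.19 (95% interval -0.36 to -0.01, adjusted p = 0.125), and it was called lower with the arrays compared alone (adjusted p = 0.0277). The late against early comparison called it lower as well, at -0.22 (adjusted p = 0.00114). The 360 min call was lost without replicate 2 of 0 min (adjusted p = 0.0508) or replicate 2 of 360 min (adjusted p = 0.0746).

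All 8 genes of chromosome structure were higher at 600 min, 6 of them already at 360 min. Ncapg, of the condensin I complex that compacts mitotic chromosomes, read 6.71, 6.85 and 6.35 at 0 min, 7.14, 7.05 and 7.28 at 360 min, 7.51, 7.30 and 7.51 at 480 min, then 7.70, 7.63 and 7.86 at 600 min. No late array overlapped with 0 min. Ncapg rose by 1.10 ± 0.14 (log2, SE) from 0 to 600 min, 2.14-fold, with an adjusted p of 4.64e-06. The other condensin genes rose by 1.01 (adjusted p = 4.69e-07) in Ncaph, 0.87 (adjusted p = 2.96e-06) in Smc2, 0.50 (adjusted p = 0.000129) in Ncapd2 and 0.35 (adjusted p = 0.00626) in Smc4. Top2a, topoisomerase II alpha, which untangles sister chromatids, read 8.71, 8.55 and 8.56 at 0 min, 9.07, 9.26 and 9.19 at 360 min, 9.33, 9.27 and 9.31 at 480 min, then 9.40, 9.22 and 9.42 at 600 min. It was above 0 min on every late array. Top2a rose by 0.74 ± 0.09 (log2, SE) from 0 to 600 min, 1.67-fold, with an adjusted p of 2.22e-06, and a further probe set of the same gene, which was not used, differed by 0.08. Mki67, whose product Ki-67 coats mitotic chromosomes, differed by 0.14 (95% interval -0.11 to 0.40, adjusted p = 0.525) at 360 min and 0.66 (adjusted p = 0.000291) at 600 min. Cdca2, which directs a phosphatase to chromatin, differed by 0.23 (95% interval 0.02 to 0.45, adjusted p = 0.135) and 0.57 (adjusted p = 0.000232) at these times.

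The 8 genes of spindle assembly and cytokinesis all rose by 600 min, with 4 higher at 360 min and 7 at 480 min. Dlgap5, a protein that stabilises kinetochore fibres, read 6.11, 6.18 and 5.85 at 0 min, 6.30, 6.40 and 6.44 at 360 min, 6.72, 6.66 and 6.79 at 480 min, then 7.00, 6.61 and 6.90 at 600 min. Its late arrays did not overlap with 0 min. Dlgap5 rose by 0.79 ± 0.09 (log2, SE) from 0 to 600 min, 1.73-fold, with an adjusted p of 1.83e-06. Hmmr, a spindle protein that works with Tpx2, read 6.76, 6.67 and 6.63 at 0 min, 6.50, 6.65 and 6.74 at 360 min, 6.86, 6.85 and 7.21 at 480 min, then 7.17, 7.10 and 7.40 at 600 min. It overlapped with 0 min at 360 min and was higher on all arrays thereafter. Hmmr rose by 0.54 ± 0.10 (log2, SE) from 0 to 600 min, 1.45-fold, with an adjusted p of 0.000293. Tpx2, which activates Aurka on the spindle, rose by 0.54 (adjusted p = 5.72e-05) at 600 min. The cytokinesis genes rose by 0.66 (adjusted p = 1.2e-06) in Racgap1 and 0.61 (adjusted p = 8e-05) in Ect2, which together direct RhoA, by 0.42 (adjusted p = 1.02e-05) in Anln, anillin, and by 0.36 (adjusted p = 0.00299) in Prc1, the bundler of midzone microtubules. Nusap1 rose by 0.45 (adjusted p = 0.0124), a call lost without replicate 3 of 0 min (adjusted p = 0.0826).

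Of the transcription factors of the late cell cycle, Mybl2 was called higher at 360, 480 and 600 min against 0 min and Foxm1 at none of them, while late against early both were. Mybl2, B-Myb, read 4.53, 4.48 and 4.53 at 0 min, 4.97, 5.12 and 5.39 at 360 min, 5.58, 5.69 and 5.48 at 480 min, then 5.66, 5.52 and 5.43 at 600 min. All late arrays lay above 0 min. Mybl2 rose by 1.02 ± 0.11 (log2, SE) from 0 to 600 min, 2.03-fold, with an adjusted p of 7.99e-07. Foxm1 read 5.76, 5.79 and 5.79 at 0 min, 5.75, 5.81 and 5.98 at 360 min, 5.77, 5.82 and 6.08 at 480 min, then 6.22, 5.95 and 5.92 at 600 min. Its 600 min arrays were all above those at 0 min, but the difference of 0.25 (95% interval 0.05 to 0.46, adjusted p = 0.0677) was not called. Foxm1 was called higher at 600 min without replicate 3 of 120 and of 240 min (adjusted p = 0.0228), after quantile normalization (0.30, adjusted p = 0.0237), among the 10372 genes left by a filter on low values (adjusted p = 0.0391), and with the arrays compared alone (adjusted p = 0.0477). Late against early, Foxm1 rose by 0.18 (adjusted p = 0.0153) and Mybl2 by 0.77 (adjusted p = 7.2e-09). The difference between the responses of Mybl2 and Foxm1 was not tested.

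**Figure D3:**
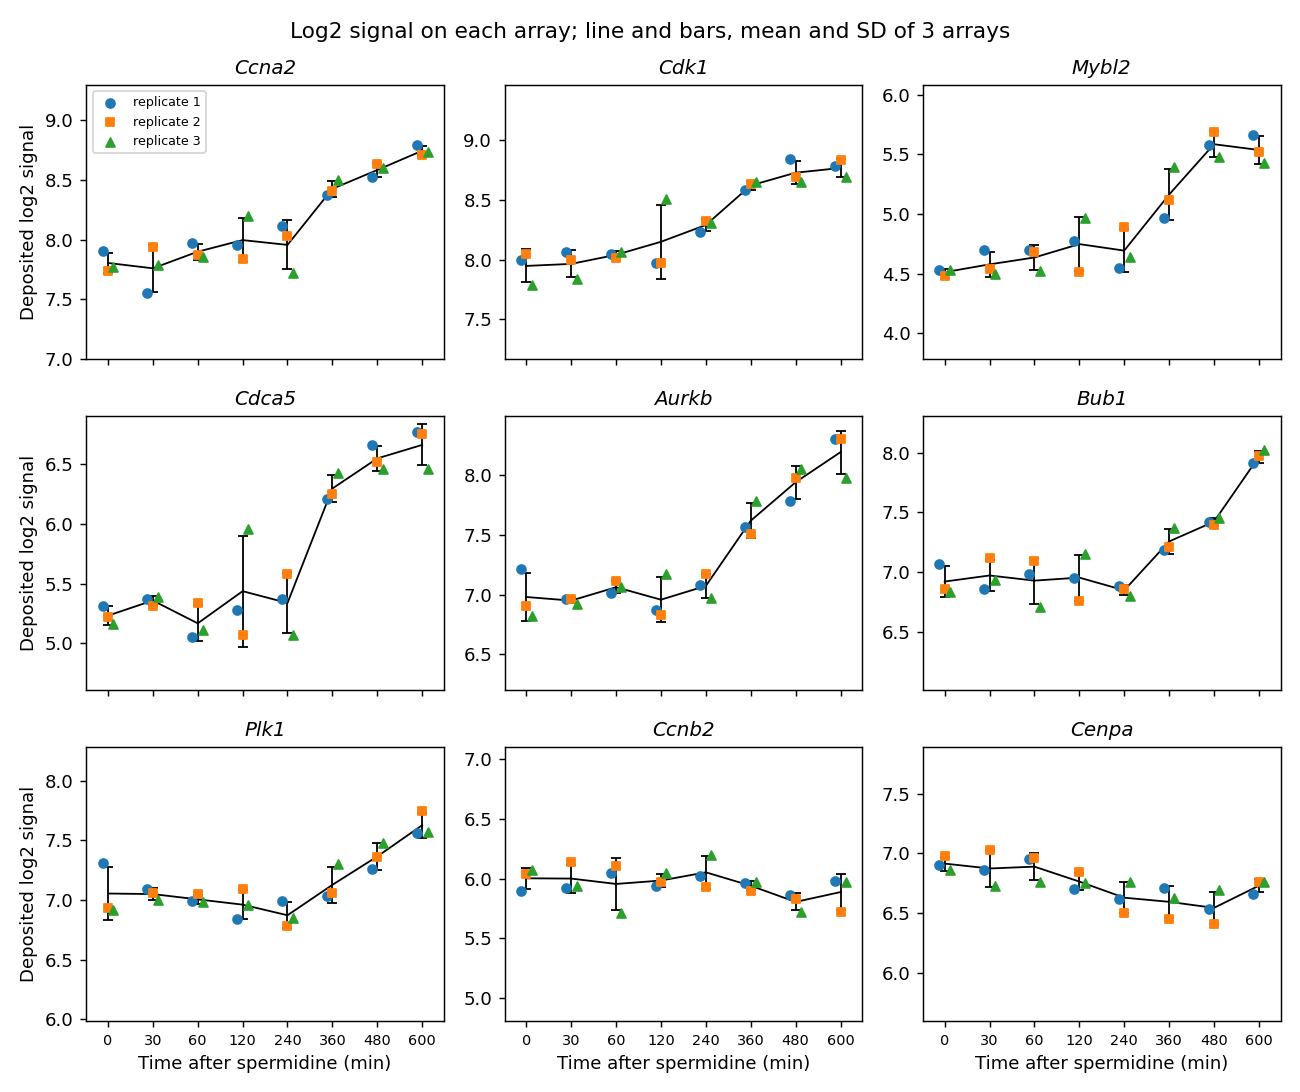
Deposited log2 level on each array (vertical axis, 1 point per array) against time after spermidine (horizontal axis, min) for selected members, with a line through the means of the 3 arrays and bars of 1 SD. Times are evenly spaced and not to scale, and each panel has its own range of levels. Aurkb reads 6.82 to 7.21 at 0 min and 7.98 to 8.30 at 600 min without overlap, whereas Cenpa falls from 6.86 to 6.98 at 0 min to 6.41 to 6.69 at 480 min.

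Between 360 and 600 min, 16 of 54 members rose and 0 fell, where 2.54% of all genes were called higher and 3.43% lower. After quantile normalization 25 rose and 0 fell, against 3.17% and 2.4% of all genes, and without replicate 3 of 120 and of 240 min 23 rose and 0 fell, against 3.37% and 4.67%. This comparison uses no 0 min array. The 3 largest rises were in Bub1, Nuf2 and Hmmr, and the median difference over the 54 members was 0.26, against 0.00 over all genes. From the arrays given above, all 3 at 600 min were above all 3 at 360 min in Bub1, Nuf2 and Hmmr, a pattern of 34 members and 9.46% of all genes. Bub1 rose by 0.71 ± 0.10 (log2, SE) from 360 to 600 min, 1.64-fold, with an adjusted p of 0.000105. Nuf2 rose by 0.62 (adjusted p = 5.47e-05) and Hmmr by 0.60 (adjusted p = 0.000961), and neither had been called at 360 min against 0 min. The other genes called were Ncapg, Aurkb, Kntc1, Cenpn, Mki67, Plk1, Dlgap5, Bub1b, Mad2l1, Tpx2, Racgap1, Pttg1 and Anln, from 0.58 (adjusted p = 0.0158) in Ncapg to 0.21 (adjusted p = 0.0297) in Anln. Cdk1 differed by 0.15 (95% interval -0.07 to 0.36, adjusted p = 0.521) and Top2a by 0.17 (95% interval -0.02 to 0.35, adjusted p = 0.34) in this interval. The 3 lowest differences were -0.14 (95% interval -0.38 to 0.10, adjusted p = 0.615) in Cdc25b, -0.08 (95% interval -0.29 to 0.13, adjusted p = 0.747) in Cdca8 and -0.05 (95% interval -0.25 to 0.14, adjusted p = 0.84) in Ccnb2. The calls of Bub1b, Ncapg, Mki67, Tpx2 and Anln were lost without at least 1 of the 6 arrays (adjusted p 0.0503 to 0.109), among them replicate 1 of 360 min for all 5, and that of Anln with replicate number as a block (adjusted p = 0.0573). In a fit of the compared arrays alone, Bub1b (adjusted p = 0.104) and Anln (adjusted p = 0.0521) lost their calls and 6 members gained one.

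**Figure D4:**
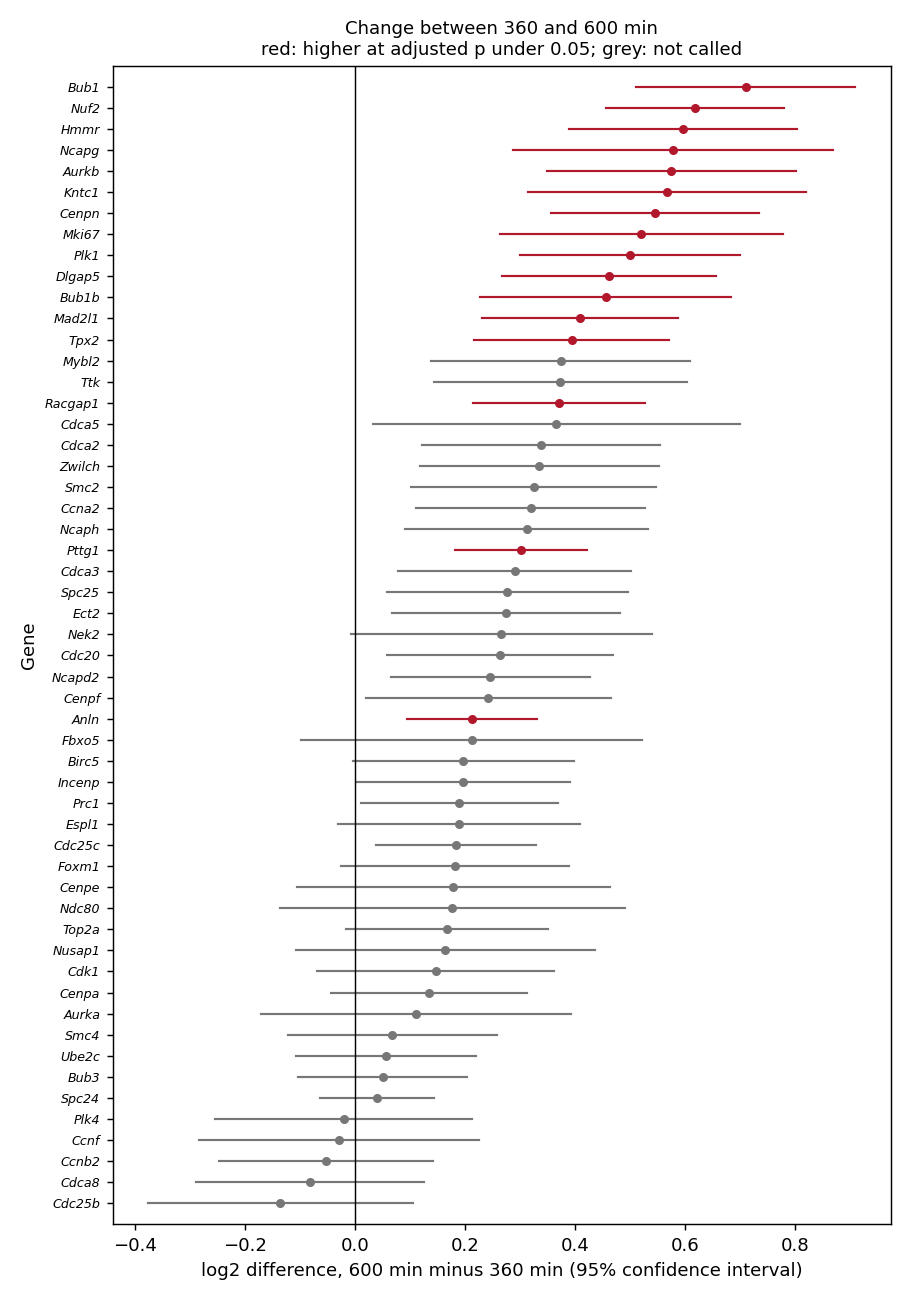
Log2 difference between 600 and 360 min (horizontal axis, points with 95% confidence intervals from limma) for the 54 genes (rows, sorted by the difference). The 16 genes called higher are red, led by Bub1 at 0.71, and the lowest point is Cdc25b at -0.14, grey as not called.

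Some of the calls at 360 and 480 min depended on single arrays. At 360 min Bub1, Bub1b, Smc4, Ncapd2, Ncapg, Ect2, Racgap1, Anln and Dlgap5 were called higher and lost their calls without at least 1 of the arrays at 0 or 360 min (adjusted p 0.0501 to 0.245). Replicate 3 of 360 min took part in 8 of these 9 losses, Anln being the exception. Over other genes this array was closest to the 480 min mean (r = 0.695, against 0.663 with its own time). Its member median was 0.39, against 0.18 and 0.22 on the other 360 min arrays. At 480 min Plk1, Hmmr, Ndc80, Smc4 and Prc1 lost theirs (adjusted p 0.0507 to 0.251), all 5 without replicate 3 of 0 min. With replicate number as a block, Smc4 (adjusted p = 0.057) and Ncapd2 (adjusted p = 0.0631) were not called at 360 min, nor Hmmr (adjusted p = 0.0583) at 480 min. In a fit of the compared arrays alone, Bub1b (adjusted p = 0.0787), Smc4 (0.0538) and Ncapd2 (0.0849) lost their calls at 360 min, and 2 members gained one. At 480 min that fit lost Plk1 (adjusted p = 0.0808) and Hmmr (0.0604) and gained 4, among them Ccnb2 as lower (0.0412).

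Other genes of the cell cycle on the same arrays gave the following background. Of 96 further G2 and mitosis genes, 52 rose and 9 fell at 600 min, where 11.2% of all genes were called higher and 15.7% lower. Their median was 0.26, against 0.54 for the 54 genes. The 96 include genes of condensin II, the core of the anaphase-promoting complex, other kinetochore proteins, and the MuvB core with E2F factors. Among these, Chek2, a checkpoint kinase, Ncapg2, of condensin II, and Cenph, of the inner kinetochore, rose by 1.75, 1.66 and 1.42, with adjusted p of 7.09e-08, 4.53e-08 and 4.49e-06. Psrc1, a spindle protein, Anapc16, of the anaphase-promoting complex, and E2f5, a repressive E2F factor, fell by 1.12, 0.65 and 0.55, with adjusted p of 1.87e-05, 3.25e-07 and 5.37e-05. Of 11 mitotic kinesins, 2 rose at 360 min, 6 at 480 min and 8 at 600 min, against 8.47%, 9.73% and 11.2% of all genes. The kinesin medians were 0.14, 0.34 and 0.43. Kif20b rose most, by 0.67 at 600 min (adjusted p = 0.000247), followed by Kif15 at 0.66 (adjusted p = 0.000306) and Kif22 at 0.56 (adjusted p = 7.44e-05).

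Genes of G1/S and DNA replication had larger median differences. Of 40 measured, 38 rose at 360 min, 39 at 480 min and 38 at 600 min, against 8.47%, 9.73% and 11.2% of all genes. Their medians were 1.09, 1.16 and 1.22 on the log2 scale. Chaf1b, a chromatin assembly factor, rose by 2.70 at 600 min (adjusted p = 1.17e-07), Mcm6, of the replicative helicase, by 2.26 (adjusted p = 2.26e-06) and Tk1, thymidine kinase, by 2.13 (adjusted p = 1.01e-09). From 360 to 600 min 4 of these 40 genes rose, beside 16 of 54 G2 and mitosis genes and 2.54% of all genes. The median differences of these lists were 0.18 and 0.26. Without replicate 3 of 120 min and of 240 min, 14 of the 40 rose and 4 fell in this interval, beside 23 and 0 of the 54. Of all genes, 3.37% were then called higher and 4.67% lower. At 240 min the median of the G1/S genes was 0.30 and that of the G2 and mitosis genes -0.04, with 0 called in both lists. Without replicate 3 of 120 min and of 240 min, 23 G1/S genes were called higher and 0 lower at 240 min, and 1 G2 and mitosis gene higher and 1 lower, where 2.47% of all genes were called higher and 5.87% lower. These counts describe the lists, and no test was made between them.

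**Figure D5:**
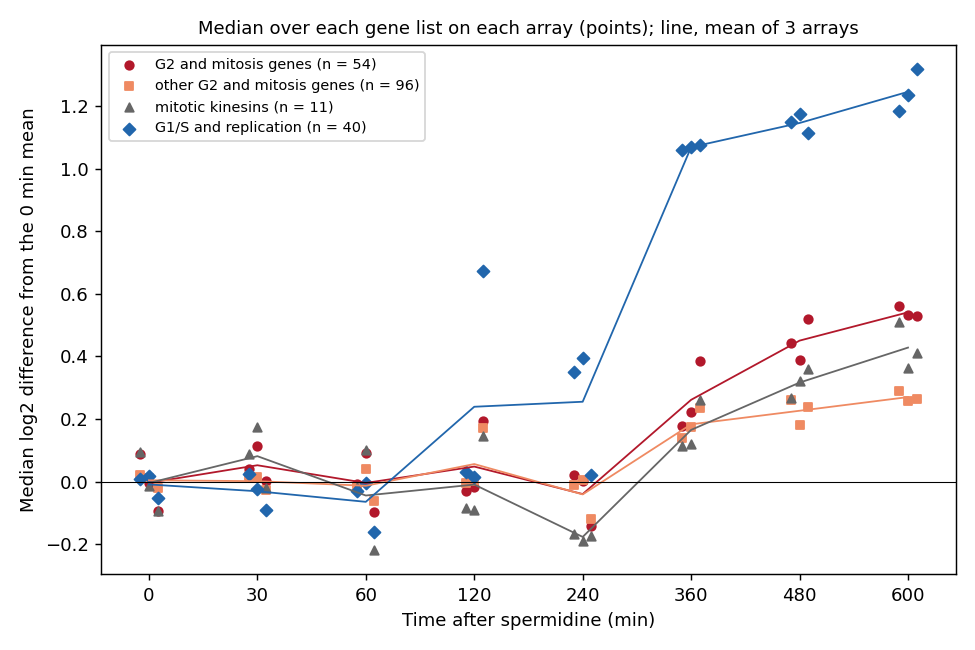
Median log2 difference from the 0 min mean over the genes of each list (vertical axis) on each of the 24 arrays (points) against time after spermidine (horizontal axis, min), for the G2 and mitosis genes and the other cell cycle lists. On single arrays, G1/S and replication genes have medians of 1.06 to 1.08 at 360 min and 1.18 to 1.32 at 600 min, and the G2 and mitosis genes 0.18 to 0.39 and 0.53 to 0.56. In both lists replicate 3 of 120 min lies above and replicate 3 of 240 min below the other arrays of their times. For the G1/S genes replicate 3 reads 0.67 at 120 min, against 0.03 and 0.01. At 240 min it reads 0.02, against 0.35 and 0.395. Lines join the means of 3 arrays, and times are not to scale.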

How the data were processed

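RNA of 24 arrays was analysed as deposited. Per the submitters' processing notes the authors used Partek and robust multi-array averaging (RMA), and the deposited values were read as log2 from their range and this method, since the scale is not stated. In these log2 values each gene has the same mean in all 3 replicate numbers (median gap 5e-06, largest 8.75e-05), by a step not given in the sources used here. That step pushes the residual correlations of same-numbered arrays, here -0.533 to 0.182, below 0 whether or not the samples were paired, so they cannot show whether the numbers pair them. The fit without a block does not count the degrees of freedom this step used, so its p-values are too small and its intervals too narrow to that extent, and calls lost with replicate number as a block (14 residual degrees of freedom) are given beside it. For each gene with a probe set carrying 1 symbol, the brightest such probe set on average was used. A model with 1 mean per time was fitted to all 19938 genes with limma 3.58.1 in R 4.3.3 (data.table in version 1.17.8), with 16 residual and 3.48 prior degrees of freedom, two-sided moderated tests and Benjamini-Hochberg adjustment within each of 10 comparisons. The script was tested on simulated data.

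The members and lists were chosen with earlier results of these data known. Levels on each array are given for genes named by role (Cdk1, Plk1, Aurkb, Cdc20, Top2a, Foxm1, Mybl2), the largest change of each role at 600 min, members called against the common direction, those of smallest p before 360 min, and the 3 largest rises and falls from 360 to 600 min. From the other lists the 3 largest changes in each direction at 600 min among called genes are named. Alternatives were a replicate block, leaving out arrays, quantile normalization, a filter on low values, the mean of probe sets, a trended robust variance and a fit of the compared arrays alone. Leaving out replicate 3 of 120 min and of 240 min together was chosen after seeing the data. Promoter sequences are from RefSeq. No sample was unassigned.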

Additional observations from a re-analysis of the deposited data

How the results depend on the processing

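Over the alternatives tried, no member called at any time changed sign. With replicate number as a block, the counts of members called were 24 at 360 min, 37 at 480 min, 41 at 600 min, 15 from 360 to 600 min, 43 late against early and 44 by the F-test, and 0 at 30, 60, 120 and 240 min. Leaving out 1 array at a time gave 0 members at 30, 60 and 120 min, 0 to 1 at 240 min, 18 to 28 at 360 min, 33 to 39 at 480 min, 38 to 42 at 600 min, 11 to 21 from 360 to 600 min, 42 to 44 late against early and 43 to 45 by the F-test. Of the members called, 16 of 26 at 360 min, 33 of 38 at 480 min, 37 of 42 at 600 min and 11 of 16 from 360 to 600 min kept their call in every such fit. At 240 min, 2 members were called with the filter on low values and 2 without replicate 3 of 120 and of 240 min, Cdk1 and Cenpa in both, and 1 without replicate 3 of 240 min, Cenpa. From 360 to 600 min, 25 members were called after quantile normalization, and 23 without that pair. At 240 min without that pair, 2.47% of all genes were called higher and 5.87% lower. From 360 to 600 min the shares were 3.17% and 2.4% after quantile normalization, and 3.37% and 4.67% without that pair. For the block, leave-one-out and filter fits no share of all genes is given, so whether those counts moved with all genes is not known. The filter tests fewer genes, and the causes of the other shifts were not tested. The 95% intervals of the differences had a median half-width of 0.21 on the log2 scale over the members.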
